A study of Mus musculus with 4 samples.

Results

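The 9 genes described here encode transcription factors of the skeletal lineages: Scx (scleraxis) and Mkx (mohawk) of tendon, Sox9, Sox5 and Sox6 of cartilage, Runx1 and Runx3 of the RUNX family, and Twist1 and Prrx1 of undifferentiated limb mesenchyme. They were taken by name, 9 of the 22180 genes tested on the array, and each had 1 probe set, so no choice between probe sets was needed. The samples were synovium dissected around the tibiotalar (ankle) joint of C57BL/6J male mice aged 12 weeks, measured on 4 arrays with 1 pool of mice each. The 2 arthritic pools held 10 mice each and were taken on day 10, labelled as peak inflammation, after arthritogenic serum of the K/BxN strain (150 microlitres per intraperitoneal injection, on days 0, 2 and 7). The 2 nonarthritic pools held 3 mice each, are labelled day 0, and per the labels' protocols were given phosphate buffered saline in place of serum, although the serum source strain K/BxN is entered for them too. Labelled day, pool size and disease therefore differ together between the groups and cannot be told apart. The labels name no transgene or deletion.

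As background, tendon, cartilage, bone and the synovial lining arise from shared mesenchymal progenitors, and the factors above help to set which path a cell takes. Scleraxis, a basic helix-loop-helix factor, and mohawk, a homeodomain factor, drive tendon collagen genes. SOX9 starts the cartilage program, and SOX5 and SOX6, which lack an activation domain, act beside it on cartilage enhancers. RUNX1 and RUNX3 bind DNA together with the partner subunit CBFB, and both also act in blood cells, RUNX1 in their formation and RUNX3 in cytotoxic T cells and natural killer cells. TWIST1 and PRRX1 mark limb and connective tissue mesenchyme and are known for holding cells in a less differentiated state.

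Of the 9 factors, 4 rose and 2 fell in arthritic synovium, and 3 did not pass the test (limma, Benjamini-Hochberg adjusted p under 0.05 over 22180 genes). Scx rose 2.87-fold, Runx3 1.77-fold, Sox9 1.74-fold and Runx1 1.70-fold. Sox6 fell 2.45-fold and Sox5 1.68-fold. Mkx, Twist1 and Prrx1 were not called. Of all genes tested, 8.72% were called higher and 6.62% lower, 15.3% in all. The median log2 fold change, arthritic minus nonarthritic, was 0.55 over the 9 factors (the value of Mkx, not called) and 0.005 over all genes. The pools of the groups did not overlap for 7 of the 9 factors, against 56.4% of all genes. Both arthritic pools lay above both nonarthritic pools for 4 factors and below them for 3, against 30.2% and 26.1% of all genes. The 9 factors were chosen with earlier results of these data known, so their comparison with all genes is a description and not a test.

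**Figure D1:**
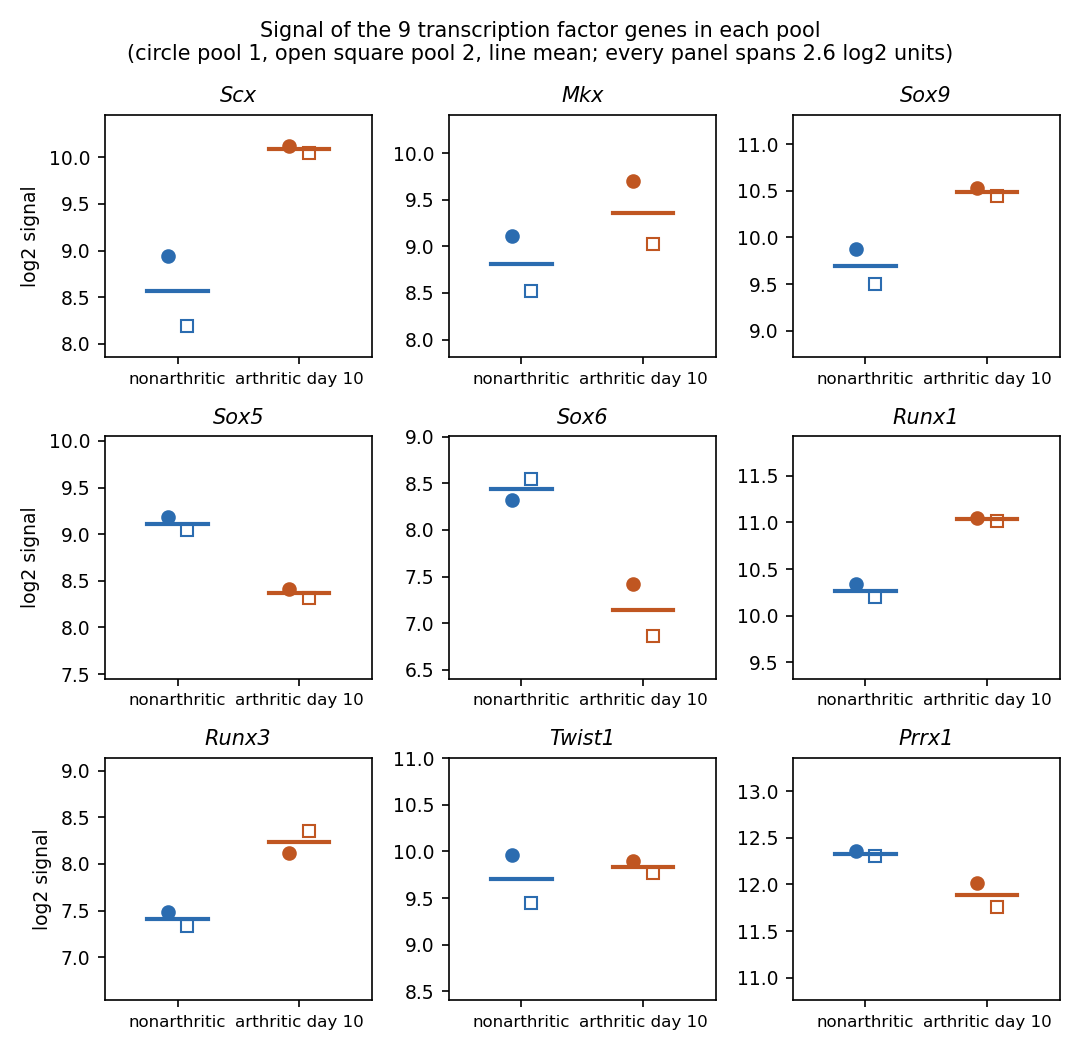
Deposited log2 signal (vertical axis, 2.6 log2 units in every panel) of each factor in the 2 nonarthritic and 2 arthritic day 10 pools; circles are pool 1, open squares pool 2 and lines the group means. Scx, Sox9, Runx1 and Runx3 lie higher and Sox5, Sox6 and Prrx1 lower in both arthritic pools than in both nonarthritic pools, while the groups overlap for Mkx and Twist1.

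Among the tendon factors, Scx read 8.94 and 8.19 (log2 signal) in nonarthritic pools 1 and 2 and 10.12 and 10.05 in arthritic pools 1 and 2. The arthritic pools lay close together and above both nonarthritic pools, which stood 0.75 apart. The log2 fold change was 1.52 ± 0.24 (SE; limma adjusted p = 0.00521), and 267 of all genes had a higher one. It was 1.90 without nonarthritic pool 1 (adjusted p = 0.0226) and 1.15 without nonarthritic pool 2 (adjusted p = 0.0676), so 1 nonarthritic pool moves the size of the rise. Without arthritic pool 1 or 2 it was 1.49 and 1.56 (adjusted p = 0.124 and 0.137). Bop1, a ribosome biogenesis gene that overlaps Scx in RefSeq (assembly GRCm38.p6), read 9.58, 9.25, 10.44 and 10.73 in the same order of pools and rose by 1.17 ± 0.19 (limma adjusted p = 0.00538). Whether the probes of one of these genes read RNA of the other was not tested.

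Mkx read 9.11 and 8.52 in the nonarthritic pools and 9.70 and 9.02 in the arthritic pools. Arthritic pool 2 lay below nonarthritic pool 1, so the groups overlapped. Its log2 fold change was 0.55 ± 0.27 (SE), with a 95% interval of -0.08 to 1.17 (limma adjusted p = 0.233). The interval includes both no change and a rise of the size of most called factors. Within each array the Scx signal minus the Mkx signal was -0.17 and -0.33 in the nonarthritic and 0.42 and 1.03 in the arthritic pools, a shift of 0.98. That shift was not tested, nor were the other within-array differences given below.

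The other tendon genes followed Scx in part. Of 17 measured genes of a tendon list, 9 rose and 8 did not pass, with a median log2 fold change of 0.60. Those with the largest changes were the fibril-associated collagen Col12a1 (2.18 ± 0.23, limma adjusted p = 0.000883), tenascin C, Tnc (2.13 ± 0.22), keratocan, Kera (1.35 ± 0.25), and Col14a1 (1.12 ± 0.19). Tenomodulin, Tnmd, a late tendon marker, read 11.36 and 11.26 in the nonarthritic and 12.28 and 11.55 in the arthritic pools, at 0.60 ± 0.24 (limma adjusted p = 0.136). The pools did not overlap for Tnmd, but the arthritic pools were further apart than the lower of them was from the nonarthritic pools. Several of the list's collagens are made by fibroblasts in general, not by tendon cells alone. Between 0 and 2 of the 17 genes rose with 1 pool left out.

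The cartilage factors split. Sox9 read 9.88 and 9.50 in the nonarthritic and 10.53 and 10.44 in the arthritic pools, a log2 fold change of 0.80 ± 0.18 (SE; limma adjusted p = 0.0228). Both arthritic pools exceeded both nonarthritic pools, by 0.56 at the least. Sox5 read 9.18 and 9.04 in the nonarthritic and 8.41 and 8.32 in the arthritic pools, and its log2 fold change was -0.74 ± 0.16 (limma adjusted p = 0.0172). Pools of the same group differed by at most 0.14 for Sox5.

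Sox6 read 8.32 and 8.55 in the nonarthritic pools and 7.42 and 6.86 in the arthritic pools. All pool pairs showed the fall, but the arthritic pools stood 0.56 apart. Its log2 fold change was -1.29 ± 0.22 (SE; limma adjusted p = 0.00615), and 2.09% of all genes had a lower one. The value was -1.02 without arthritic pool 2 (adjusted p = 0.109) and -1.57 without arthritic pool 1 (adjusted p = 0.0464). Without nonarthritic pool 1 or 2 it was -1.41 and -1.18 (adjusted p = 0.0691 and 0.145). On arthritic pool 2 the Sox6 signal of 6.86 lay under 6.94, the 95th percentile of olfactory receptor genes on that array, which serve as a stand-in for background. The fall is therefore a lower bound if that reading is background.

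Within each array, the Sox9 signal minus the Sox6 signal was 1.56 and 0.95 in the nonarthritic and 3.11 and 3.58 in the arthritic pools, a shift of 2.09 on the log2 scale, which is a lower bound if the Sox6 reading of arthritic pool 2 is background. The Sox9 signal minus the Sox5 signal was 0.70 and 0.46 in the nonarthritic and 2.12 and 2.12 in the arthritic pools, a shift of 1.54. These within-array differences do not change when an array is shifted as a whole, though they can when low and high signals shift unequally. For both pairs the lowest arthritic value was above the highest nonarthritic one. For Sox5 minus Sox6 the values were 0.86 and 0.49 against 0.99 and 1.46, with the nearest pools 0.13 apart.

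**Figure D2:**
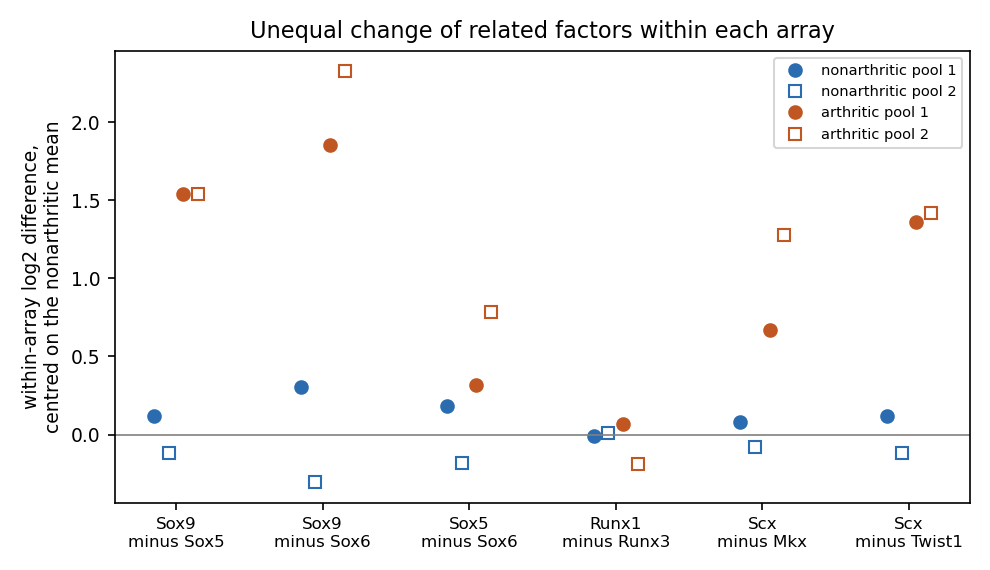
Log2 signal of one factor minus that of another on the same array (vertical axis, centred on the nonarthritic mean of each pair) for 6 pairs of factors; blue marks are nonarthritic and orange marks arthritic pools. The arthritic pools lie above the nonarthritic pools for Sox9 minus Sox5 and Sox9 minus Sox6, with shifts of 1.54 and 2.09 (the second a lower bound if the low Sox6 reading of arthritic pool 2 is background), and overlap them for Runx1 minus Runx3.

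Sequence before RefSeq starts is shown for the pair that fell together, because the falls of Sox5 and Sox6 oppose the rise of Sox9. The 250 bases before a RefSeq start (GRCm38.p6), read 5′ to 3′ on the gene's strand, were searched on both strands for the SOX core ACAAT, marked in capitals. The Sox5 window at chr6:143947107-143947356 on the minus strand held 1 match, which begins 154 bases before the start. This window lies within the RefSeq gene (chr6:143828425-144782287), before an internal start and not before the outer end of the gene. Sox6 has 6 starts in the table, and their windows all lie within the RefSeq gene (chr7:115470872-116040776). The window shown, at chr7:115801610-115801859 on the minus strand, was chosen because it held the most matches, 3. The middle match of the Sox6 window, which begins 145 bases before the start, overlaps a match to the E-box CANNTG.
Sox5: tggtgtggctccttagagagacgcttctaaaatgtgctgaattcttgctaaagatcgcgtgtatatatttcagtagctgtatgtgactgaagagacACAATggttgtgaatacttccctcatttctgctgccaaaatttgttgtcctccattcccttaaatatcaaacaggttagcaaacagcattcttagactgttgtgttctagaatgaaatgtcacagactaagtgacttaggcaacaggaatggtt
Sox6: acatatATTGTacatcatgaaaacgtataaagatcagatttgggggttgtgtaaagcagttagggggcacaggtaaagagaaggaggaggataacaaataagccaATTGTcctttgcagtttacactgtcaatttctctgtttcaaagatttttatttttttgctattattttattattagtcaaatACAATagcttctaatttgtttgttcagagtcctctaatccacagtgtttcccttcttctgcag
Of all 32851 windows, 27.7% held at least 1 SOX match and 1.35% held 3 or more, shares of single windows that do not apply to one picked as the highest of 6. The other Sox6 windows held 0, 0, 2, 0 and 2 matches, from the outermost table start inward. The signal of a probe set does not show which start was used, and a match is a description of the letters only. RefSeq windows were found for 6 of the 9 factors, not for Scx, Mkx or Sox9.

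Close relatives of these SOX genes did not pass the test. Sox13, the third gene of the SOX5 and SOX6 group, read 8.62 and 8.60 in the nonarthritic and 8.39 and 8.34 in the arthritic pools (log2 fold change -0.24 ± 0.15, limma adjusted p = 0.345). Sox8 and Sox10, which form a group with Sox9, were at -0.11 ± 0.16 and -0.42 ± 0.16 (limma adjusted p = 0.72 and 0.127). Of 16 measured SOX genes outside the 9 factors, 2 rose, against 8.72% of all genes, and 14 did not pass. Those that rose were Sox4, a progenitor factor (1.46 ± 0.31, limma adjusted p = 0.0171), and Sox12 of the same group (0.68 ± 0.16, limma adjusted p = 0.0241), which had 1 nonarthritic reading under the background stand-in. Sox4 read 8.68 and 7.98 against 10.19 and 9.38, so its pools stood 0.70 and 0.81 apart within groups. Of the 16, 5 had a mean under the background stand-in of 6.98. The calls of Sox4 and Sox12 were lost with any 1 pool left out.

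Cartilage matrix genes, many of which are targets of the SOX trio, moved both ways. Of 23 measured, 7 rose and 5 fell, with a median of 0.50. Col11a1, a fibrillar cartilage collagen, rose from 8.90 and 8.25 to 11.10 and 10.84 (log2 fold change 2.39 ± 0.23, limma adjusted p = 0.00059). Aggrecan, Acan, rose by 2.02 ± 0.22 and type II collagen, Col2a1, by 0.86 ± 0.20 on the log2 scale. The cartilage lectin Clec3a was at -4.91 ± 0.23, chondroadherin, Chad, at -3.61 ± 0.21 and Cytl1 at -3.51 ± 0.18, each called lower (limma adjusted p of at most 0.000117). So some cartilage products were higher and others lower in the same pools. Arthritic pool 1 exceeded arthritic pool 2 for 19 of the 23 genes (median gap 0.36), as it did for 8 of the 9 factors, by most for Mkx (0.68) and Sox6 (0.56). It did so for 10848 of all 22180 genes, and for most genes of several related lists, among them 31 of 43 limb and mesenchymal factors. Arthritic pool 1 was the higher for only 2 of 16 neutrophil, 5 of 16 macrophage and monocyte and 1 of 14 proliferation genes. Runx3 was the factor with the other order (8.12 against 8.35). Nonarthritic pool 1 likewise exceeded nonarthritic pool 2 for 19 of the 23 genes and 8 of the 9 factors. It did so for 31 of the 43 limb and mesenchymal factors, and for 11950 of all genes. When pools were dropped in turn, 1 to 2 of the 23 rose and 3 to 4 fell.

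Genes of hypertrophic cartilage and bone formation lay lower, with 7 of 15 called lower and 1 higher and a median of -0.87. Col10a1, the collagen of hypertrophic cartilage, fell by 3.93 on the log2 scale, from 11.11 and 10.83 to 7.01 and 7.07 (limma adjusted p = 7.77e-05). The endopeptidase Phex was at -1.86 ± 0.26. Both its arthritic readings (6.49 and 5.78) lay under the background stand-in of their arrays. Its fall is a lower bound if these readings are background. The factors Mef2c and Dlx5, which promote hypertrophy and bone formation, were at -1.60 ± 0.29 and -1.60 ± 0.32. Leaving out 1 pool left 1 to 7 called lower.

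Both RUNX factors rose by a like amount. Runx1 read 10.34 and 10.20 in the nonarthritic and 11.05 and 11.02 in the arthritic pools, a log2 fold change of 0.77 ± 0.16 (SE; limma adjusted p = 0.0149). Runx3 read 7.49 and 7.33 in the nonarthritic and 8.12 and 8.35 in the arthritic pools, at 0.82 ± 0.17 (limma adjusted p = 0.0146). For both genes the gap between the groups was more than the distance between pools of a group. The Runx1 signal minus the Runx3 signal was 2.85 and 2.87 in the nonarthritic and 2.93 and 2.67 in the arthritic pools, a shift of -0.06. The nonarthritic Runx3 signal on pool 2 (7.33) lay just under the 95th percentile of olfactory receptor genes on that array (7.36), so the Runx3 rise is a lower bound if that reading is background.

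The windows before the outermost table starts of these genes are shown because distal promoters of RUNX genes are known to carry RUNX binding sites. Capitals mark the RUNX core TGTGGT, searched on both strands in the same 250 bases, so that ACCACA is its reverse complement. The Runx3 window lies at chr4:135120395-135120644 on the plus strand and the Runx1 window at chr16:92826075-92826324 on the minus strand.
Runx3: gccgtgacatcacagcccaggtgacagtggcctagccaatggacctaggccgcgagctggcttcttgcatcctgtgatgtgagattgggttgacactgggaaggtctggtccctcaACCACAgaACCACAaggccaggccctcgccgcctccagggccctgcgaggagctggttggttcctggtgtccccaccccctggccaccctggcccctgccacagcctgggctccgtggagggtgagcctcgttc
Runx1: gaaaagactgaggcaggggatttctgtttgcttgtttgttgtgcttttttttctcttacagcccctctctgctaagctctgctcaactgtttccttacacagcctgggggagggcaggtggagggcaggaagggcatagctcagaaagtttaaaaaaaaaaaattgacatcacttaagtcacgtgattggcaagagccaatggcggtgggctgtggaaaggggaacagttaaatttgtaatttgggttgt
The Runx3 window held 2 matches, which begin 134 and 126 bases before the start and do not overlap. Of all 32851 windows, 4614 held at least 1 match and 1.27% held 2 or more. The Runx1 window held none of these letters, and neither did the second table window of either gene.

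Among partners and corepressors of the RUNX factors, Cbfb, which encodes their partner subunit, read 11.01 and 10.87 in the nonarthritic and 11.19 and 10.91 in the arthritic pools (log2 fold change 0.11 ± 0.17, limma adjusted p = 0.738). Of 11 measured genes, 3 fell and 1 rose, against 6.62% and 8.72% of all genes. Those that fell were the kinase Hipk2 (-1.46 ± 0.16, limma adjusted p = 0.000901) and the Groucho-type corepressors Tle4 (-0.86 ± 0.19) and Tle1 (-0.71 ± 0.19). Yap1, a coactivator of the Hippo pathway, rose by 0.64 ± 0.15. Yap1 and Tle1 had 2 probe sets each, and with probe sets averaged per gene 2 of the list were called lower and 0 higher. Dropping 1 pool left 0 to 1 lower and the rise of Yap1 uncalled.

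Since Runx1 and Runx3 are active in leukocytes, the markers of these cells stand beside them. In bulk tissue, more cells of a type and more RNA per cell cannot be told apart. Of 16 measured neutrophil markers, 10 rose and 6 did not pass, with a mean signal over the list of 7.19 and 6.97 in the nonarthritic and 8.99 and 9.25 in the arthritic pools. Mmp9, S100a8, Cxcr2 and Mmp8 were at 3.84, 3.67, 3.63 and 3.29 on the log2 scale. Of 16 macrophage and monocyte markers, 6 rose, led by Mpeg1 (1.91) and Fcgr1 (1.59), and 3 fell, led by Vsig4 (-2.06) and Timd4 (-1.79), which mark resident macrophages. Of 19 T and natural killer cell markers, 3 rose (Gzmb, 2.17; Cd4, 1.74; Il2rb, 1.03) and 16 did not pass, and 8 of the 19 lay under the background stand-in. Both nonarthritic readings of Mmp8, Gzmb and Il2rb lay under the background stand-in of their arrays. So did 1 nonarthritic reading of S100a8 and of Cd4, and 1 arthritic reading of Timd4. The changes of these genes are lower bounds in size if those readings are background. Leaving out 1 pool left 3 to 10 neutrophil, 0 to 2 macrophage and 1 to 2 lymphocyte markers that rose. Their part in the RUNX values was not tested.

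Twist1 and Prrx1 were not called. Twist1 read 9.96 and 9.45 in the nonarthritic and 9.90 and 9.77 in the arthritic pools, so that both arthritic readings lay between the nonarthritic ones. Its log2 fold change was 0.13 ± 0.20 (SE), with a 95% interval of -0.34 to 0.60 (limma adjusted p = 0.736), and it was -0.12 without nonarthritic pool 2. Prrx1 read 12.36 and 12.30 in the nonarthritic and 12.02 and 11.76 in the arthritic pools, with both arthritic pools lower. Its log2 fold change was -0.44 ± 0.17, with an interval of -0.82 to -0.06 (limma adjusted p = 0.121 over all genes), and the adjusted p was 0.0396 when the variance prior was allowed to follow signal.

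The nearest relatives of these factors also differed among themselves. Prrx2, the paralog of Prrx1, rose from 9.35 and 8.95 to 10.21 and 9.80 (0.85 ± 0.21, limma adjusted p = 0.0297), while Prrx1 pointed the other way. Twist2 was at -0.24 ± 0.27 (limma adjusted p = 0.622). Of 15 measured basic helix-loop-helix and epithelial-mesenchymal transition genes, which include the E proteins that pair with TWIST1 and scleraxis, 2 rose and 2 fell, with a median of -0.02. The shares over all genes were 8.72% and 6.62%. Besides Prrx2, the repressor Snai1 rose by 1.64 ± 0.22 (limma adjusted p = 0.00258). Id4 and Id2, which encode inhibitors that bind E proteins, were at -1.27 ± 0.15 and -0.72 ± 0.16 and were called lower. Leaving out 1 pool left 0 to 1 higher and 0 to 1 lower.

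**Figure D3:**
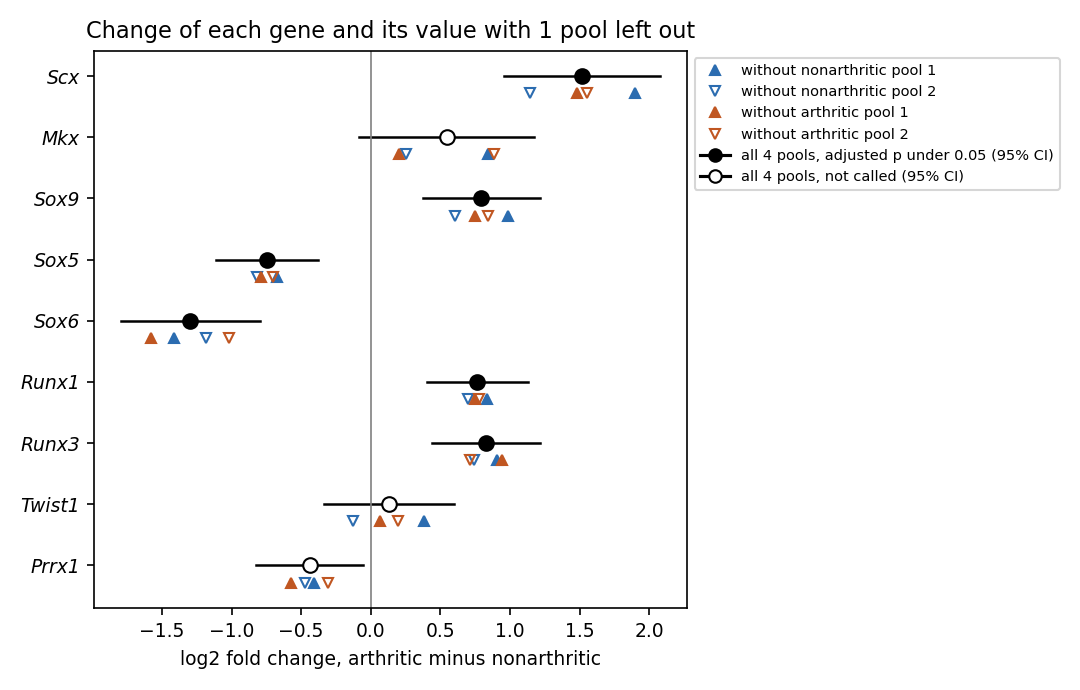
Log2 fold change (horizontal axis, arthritic minus nonarthritic) of each factor with its 95% interval from limma (black; filled where the adjusted p was under 0.05), and below it the values with 1 pool left out (triangles). Every called factor keeps its sign with each pool left out, from 1.15 to 1.90 for Scx and from -1.57 to -1.02 for Sox6, while Twist1 runs from -0.12 to 0.38.

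The calls of the 9 factors rest on all 4 pools. Without nonarthritic pool 1, Scx alone was called higher and none was called lower. Without arthritic pool 1, Sox6 alone was called lower and none higher. Without nonarthritic pool 2 or arthritic pool 2, 0 of the 9 were called by limma, although 6 and 7 of them had an unadjusted p under 0.05, against 7 with all pools. The adjusted p ran from 0.0540 to 0.184 for Sox9, from 0.0680 to 0.144 for Runx1, from 0.0747 to 0.160 for Runx3 and from 0.0996 to 0.160 for Sox5 when pools were left out in turn. With all 41345 probe sets tested in place of 22180 genes, the fold changes were the same and 0 of the 9 factors were called by limma (adjusted p from 0.0565 to 0.0967 for the 6 named above; 7 of 9 at an unadjusted p under 0.05). In the fits without a pool the group with a single pool was assumed to vary like the other.

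Of 43 other measured factors of limb and mesenchyme, 1 rose, En1 (0.81 ± 0.16, limma adjusted p = 0.0115; 1 nonarthritic reading under the background stand-in), and 5 fell, with a median of -0.10. The shares over all genes were 8.72% higher and 6.62% lower. Creb5, a factor of articular cartilage and synovium, was at -1.44 ± 0.17 (limma adjusted p = 0.0012), the forelimb factor Tbx5 at -1.10 ± 0.16 and the joint factor Osr2 at -0.96 ± 0.25. Dropping 1 pool left 0 to 2 lower and En1 uncalled.

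Most genes of a list of signals known to act upstream of these factors did not pass the test. Of 24 measured genes, 5 fell, 1 rose and 18 did not pass, with a median of -0.17. Of all genes, 6.62% fell and 8.72% rose. Bmp4 read 10.68 and 10.78 in the nonarthritic and 9.08 and 7.72 in the arthritic pools (log2 fold change -2.33 ± 0.37, limma adjusted p = 0.00534), and the arthritic pools stood 1.36 apart. Fgf2 was at -1.36 ± 0.19, Bmp2 at -1.15 ± 0.25 and the hedgehog receptor Ptch1 at -0.93 ± 0.17, each called lower. The hedgehog transducer Smo rose by 0.86 ± 0.16 on the log2 scale. Tgfb3, which acts in tendon formation, and Gdf5, which marks the early joint, were at 0.47 ± 0.16 and 0.82 ± 0.31 (limma adjusted p = 0.0845 and 0.117). Any 1 pool left out left 0 to 2 lower and Smo uncalled.

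**Figure D4:**
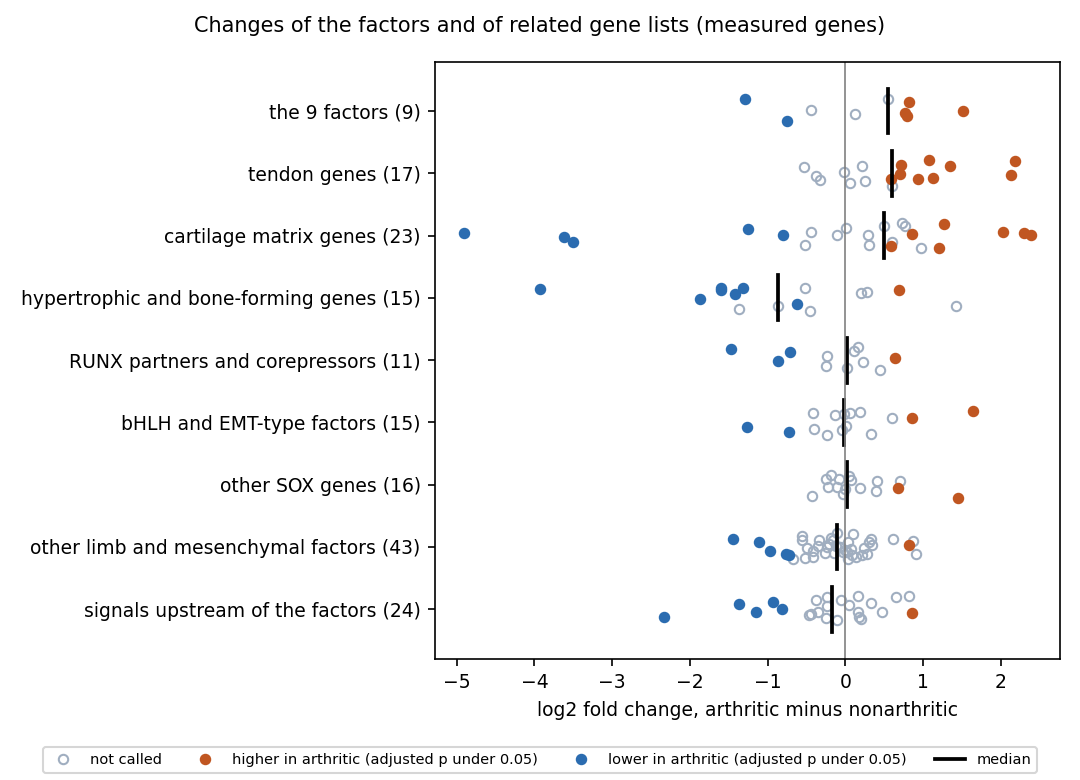
Log2 fold change (horizontal axis, arthritic minus nonarthritic) of each measured gene in the 9 factors and 8 related lists; filled marks are called (adjusted p under 0.05), open marks are not, and black bars are list medians. Tendon genes lie mostly to the right (median 0.60), hypertrophic and bone-forming genes to the left (-0.87), and cartilage matrix genes on both sides.

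Markers of other tissues in the dissection moved with the groups. Of 20 skeletal muscle markers, 18 fell, with a mean signal of 10.63 and 10.99 in the nonarthritic and 8.53 and 8.21 in the arthritic pools; Neb, Casq1, Ttn and Myh1 were at -3.81, -3.73, -3.66 and -3.46. SOX6 is also made in muscle. Muscle markers read lower on nonarthritic pool 1 than on pool 2 in 20 of 20 cases. They read higher on arthritic pool 1 than on pool 2 in 17 of 20, and Sox6 had the same orders. Each order alone was also found elsewhere. T and natural killer cell markers read lower on nonarthritic pool 1 in 14 of 19 cases, though higher on arthritic pool 1 in only 7. Arthritic pool 1 was the higher for 8 of the 9 factors, but nonarthritic pool 1 was the lower for Sox6 alone. Of the 17 lists, that of muscle alone showed both orders in most of its genes. Of all 22180 genes, 9910 read lower on nonarthritic pool 1 and 10848 higher on arthritic pool 1. All 9 measured adipocyte markers fell (median -2.55; Cidec -3.40, Retn -3.30, Plin1 -2.93, Plin4 -2.71), as did 6 of 7 Schwann cell markers (median -0.92; Cdh19 -2.39, S100b -1.89, Ncmap -1.06, Mbp -0.92). Of 10 endothelial markers, Tie1 (0.82) and Kdr (0.73) rose, against 8.72% of all genes. Of 14 proliferation genes, 13 rose (median 1.57; Cdk1 2.51, Top2a 2.07, Ccnb2 1.94, Mcm5 1.67). Both arthritic readings of Cdh19 and 1 nonarthritic reading of Top2a lay under the background stand-in. The changes of these genes are lower bounds in size if those readings are background. The part of these tissues in the values of the 9 factors was not tested.

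The labelled tissue showed its own markers. Lubricin, Prg4, a product of lining fibroblasts, read 13.66 and 13.66 in the nonarthritic and 13.27 and 13.52 in the arthritic pools. Of 20 synovial fibroblast markers, 6 rose, led by Cdh11 (1.70) and Vcam1 (1.45), and 6 fell, led by Clic5 (-2.48) and Htra4 (-1.89), with a median of 0.08. With 1 pool left out, 9 to 17 muscle markers, 4 to 8 adipocyte markers and 1 to 3 Schwann cell markers fell and 0 to 11 proliferation genes rose. The same removals left 0 to 4 fibroblast markers higher, 0 to 4 lower and both endothelial rises uncalled.

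**Figure D5:**
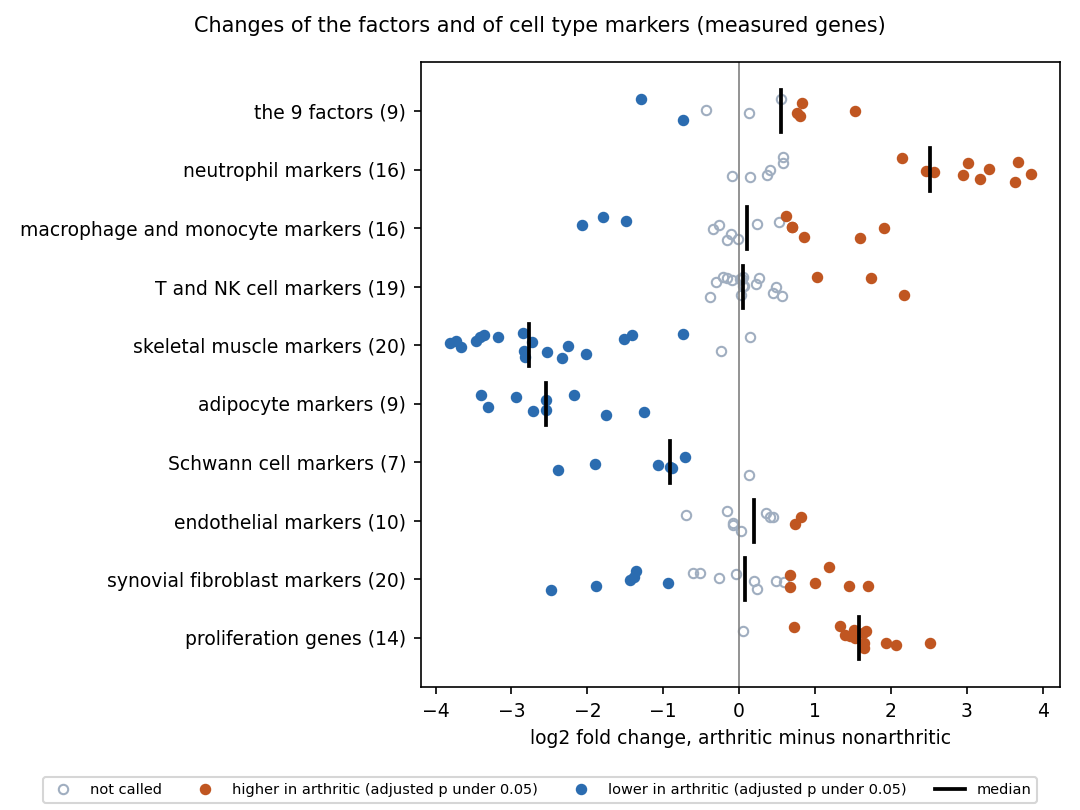
Log2 fold change (horizontal axis, arthritic minus nonarthritic) of each measured gene in the 9 factors and 9 marker lists; filled marks are called (adjusted p under 0.05), open marks are not, and black bars are list medians. Neutrophil (2.51) and proliferation (1.57) medians lie to the right, and those of muscle (-2.77), adipocyte (-2.55) and Schwann cell (-0.92) markers to the left.

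The genes whose 4 readings, each centred on its own mean, came closest to those of a factor were named as a description over 4 arrays, where many genes share any given profile. For Scx these were Arhgef25, Ptgfr and Wdr6 (root mean square differences of 0.07, 0.07 and 0.08 on the log2 scale), and 7 genes lay within 0.1. For Sox6 they were Slc38a11, Pgm5 and Fhl1 (0.03, 0.04 and 0.05), with 16 genes within 0.1. For Mkx they were Mmp16, 1810009A15Rik and Cdkn1c, with 32 genes within 0.1. The profiles of the other factors were common, with 319 to 829 genes within 0.1. The nearest to Runx3 included Ptprc, the pan-leukocyte antigen CD45, which read 10.29 and 10.15 in the nonarthritic and 10.89 and 11.15 in the arthritic pools, beside Cyp7b1 and Cyp4f16. The nearest to Runx1 were Plod1, Ifnar1 and AW551984, to Sox9 Fntb, Pes1 and Atp8b2, and to Sox5 Lncbate1, Jpx and Erbb3. Those nearest to Twist1 were Bend3, Chrd and B230217O12Rik, and to Prrx1 Rpph1, Rbm27 and Thsd4.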

How the data were processed

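Values are the authors' deposited log2 signals, 1 per probe set and array, on a scale inferred from their range of 2.89 to 14.27. Per the submitters' processing notes, RMA, Affymetrix Expression Console and Affymetrix Power Tools were used; the sources used here give no versions. Of 41345 probe sets, 23521 carried 1 gene symbol, 1814 several and 16010 none; each gene took its brightest probe set, giving 22180 genes. The comparison used limma 3.58.1 in R 4.3.3 (lmFit and eBayes, 2-sided, no block; 2 residual and 5.98 prior degrees of freedom), tested on simulated data. SE are limma's. The 17 gene lists besides the factors hold 309 genes, 295 of them measured.

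The 9 factors and the lists were chosen with earlier results of these data known. From each list the up to 4 called genes with the largest changes were named; Cbfb, Bop1, Acan, Col2a1, Tnmd, Prg4, Gdf5, Tgfb3, Smo and close paralogs were named for their roles after values were seen. The labels call the pools biological replicates, so the tests set changes against variation between pools, not mice. With 5.98 prior against 2 residual degrees of freedom, most of that variation was estimated over all genes and not from the gene itself. Alternatives were median centring, renewed quantile normalization, a filter on dim genes (olfactory receptor 95th percentile, 6.98), averaged probe sets, all probe sets, other variance priors, a pool-number block and leaving out each pool. The number of arrays limits precision. Array medians were 6.96 to 7.15. The median of olfactory receptor genes was 5.15 on nonarthritic pool 2 and 4.60 to 4.68 on the other arrays. Their 95th percentile was 7.36 on nonarthritic pool 2 and 6.77 to 6.94 on the others. The part of this higher background in the readings of the 9 factors was not tested. Rises were 56.8% of calls, and 67.1% with arrays centred on medians.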

Additional observations from a re-analysis of the deposited data

How the results depend on the processing

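The direction of each of the 9 factors held under every alternative run, except that Twist1 ran from -0.12 (without nonarthritic pool 2) to 0.38 (without nonarthritic pool 1). Over all genes, 1933 were called higher and 1469 lower. With all 41345 probe sets tested, 685 and 781 were called, and 0 and 0 of the 9 factors (limma adjusted p from 0.0565 to 0.0967 for the 6 called otherwise; 7 of 9 at an unadjusted p under 0.05); more features were tested and the variance prior weakened to 3.22 degrees of freedom. With 1 pool left out, 47 to 637 genes were called higher and 105 to 584 lower, and 0 to 1 factors in each direction. Median centring, renewed quantile normalization, the dim-gene filter, averaged probe sets and both other variance priors gave 4 rises and 2 falls among the factors, or 3 falls with the intensity trend. With the replicate block on pool number 1216 genes were called higher and 1027 lower, and 3 and 2 factors; Runx3 was not called (adjusted p = 0.0529). The labels state no pairing of same-numbered pools and do not exclude one. Deviations of same-numbered pools correlated at 0.18 over genes. Of other named genes, values changed sign when a pool was left out for Bend3 (-0.10 to 0.36), Chrd (-0.10 to 0.38), B230217O12Rik (-0.065 to 0.42), Cbfb (-0.03 to 0.25) and Twist2 (-0.58 to 0.10); none of these was called, and the cause was not tested.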
